A study of Homo sapiens with 9 samples.

Results

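Messenger RNA was compared between cells treated with dTAG47 and cells treated with AGB1, without the DMSO-treated cells as the reference. The comparison rests on 6 of the 9 libraries of the study, chosen by the treatment named in their titles: dTAG47 1 to 3 and AGB1 1 to 3. All libraries came from HEK293T, an established human line of embryonic kidney origin with SV40 large T antigen, in which PRPS1 bears an HA epitope with a dTAG and PRPSAP1 bears a V5 epitope with a BromoTag. The DMSO control cells carry both tags too, so that no library shows the untagged state, and the labels do not say whether the line is 1 clone. Both compounds were given at 500 nM for 24 h. Nothing in the labels ties the 3 libraries of a group to separate cultures. The p-values therefore rest on library-to-library spread alone, and part or all of it may be technical.

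PRPP synthetase joins ribose 5-phosphate to pyrophosphate and so makes PRPP, the sugar donor for purine, pyrimidine and NAD synthesis. PRPS1 and PRPS2 are its catalytic subunits, while PRPSAP1 and PRPSAP2 are related proteins that bind to them and lack the catalytic activity. dTAG47 links the tag on PRPS1, a mutant FKBP12, to the ubiquitin ligase receptor CRBN. AGB1 links the tag on PRPSAP1, a mutant bromodomain, to the ubiquitin ligase receptor VHL. The comparison therefore sets loss of a catalytic subunit against loss of an associated protein, and it also sets one compound and one ligase against another. These differences come together in every library and cannot be told apart.

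No gene passed the threshold between the treated groups. Of 18319 genes tested, 0 (0%) passed an adjusted p of 0.05 in edgeR's quasi-likelihood test, and the smallest adjusted p was 0.999. At an unadjusted p under 0.05 there were 736 genes (4.02%), 412 higher with dTAG47 and 324 lower, where 5% of the tested genes would be 916. DESeq2 and limma-voom also called 0 genes, with 818 and 727 at an unadjusted p under 0.05. In 980 genes (5.35%) every dTAG47 library stood above every AGB1 library, and in 935 genes (5.1%) every one stood below. A p that misses the threshold does not show that the treatments act alike, and the intervals give what the data allow. Among the 11427 genes with a mean of at least 5 CPM (read counts scaled to a common library total) over the 6 libraries, the 95% interval of the difference lay within a 1.5-fold change either way for 11029 (96.5%). It lay within 2-fold for all but 12. The median absolute difference in these genes was 0.06 on the log2 scale, with a median standard error of 0.09. Over all 18319 tested genes, low levels included, the interval lay within 1.5-fold for 62.2%.

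**Figure D1:**
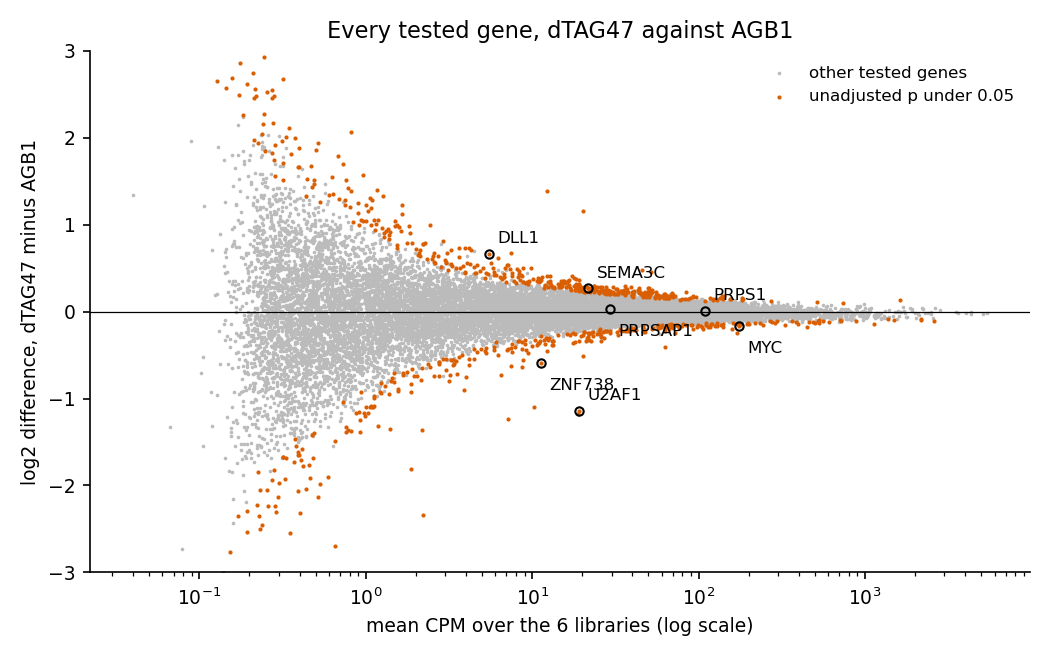
Each point is a tested gene, with its mean CPM over the 6 libraries on a log axis and its log2 difference, dTAG47 minus AGB1, on the vertical axis; 5 genes lie outside the plotted range. The 736 genes at an unadjusted p under 0.05 lie at the edges of a cloud that narrows towards high levels, and PRPS1 and PRPSAP1 lie near 0.

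The 6 libraries did not sort by compound. Total counts ranged from 27964128 to 44803380, and a count of 3, taken as the detection floor, corresponded to at most 0.107 CPM. The median absolute log2 difference between libraries was 0.0819 to 0.133 for the 6 pairs within a group and 0.0892 to 0.121 for the 9 pairs between groups. dTAG47 1 stood apart: its score on the first principal component (27.6% of the variance) was 14.7, against −5.45 to −0.46 for the other 5, and its deviations followed the GC content of the transcripts (Spearman's rho 0.623 across genes, against −0.329 to 0.050). AGB1 2 stood apart on the second component (20.9%, score 12.4). Mitochondrial transcripts took 2.16% ± 0.216 of counts with dTAG47 and 2.12% ± 0.152 with AGB1 (SD, n = 3, two-sided exact permutation p = 0.9, where 0.1 is the smallest p possible). Ribosomal protein mRNAs took 7.24% ± 0.0598 and 7.37% ± 0.133 (exact permutation p = 0.3). Of the epithelial markers, CDH1 was at 6.81 and 6.61 CPM, EPCAM at 1.69 and 2.47, and KRT7 had 0 counts in the 6 libraries, while the simple-epithelium keratins KRT8 and KRT18 were present at 33.4 and 27.4 CPM and at 49.1 and 54.5 CPM; the labels call the cells epithelial. The KRT8 libraries did not overlap (0.28, 0.10 to 0.47), nor did those of the collagen gene COL1A1 (0.23, 0.02 to 0.45). COL1A1 was at 32.3, 25.9 and 28.8 CPM with dTAG47 and 22.7, 25.6 and 25.7 CPM with AGB1. Of the 7 fibroblast and endothelial markers listed, 2 were tested. The other, VWF, was below 1 CPM and lower with dTAG47 (−0.58, −2.3 to 1.14). Among markers known from HEK293 cells, VIM was at 356 and 344 CPM and the neurofilament gene NEFM at 190 and 209. PAX2 and LHX1, on the same list, were low, at 1.26 and 1.44 CPM and at 2.69 and 3.58 CPM. Of the 10 genes on this list, 7 were lower with dTAG47. Every dTAG47 library stood below in 1 gene, NEFL, and above in 1, KRT8, beside 5.1% and 5.35% of all tested genes. The neurofilament gene NEFL was at −0.10 (−0.23 to 0.02), and NEFM, in overlapping groups, at −0.13 (−0.26 to −0.00). Summed blood cell markers stayed between 2.28 and 4.73 CPM.

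The tagged genes had nearly equal transcript levels with either compound. PRPS1 lies on GRCh38 chromosome X (107628424 to 107651026, plus strand). Its level was 113, 110 and 106 CPM with dTAG47 and 109, 109 and 110 CPM with AGB1. The dTAG47 values enclosed the AGB1 values, and the log2 difference was 0.01 (95% interval −0.11 to 0.14). PRPSAP1 (chromosome 17, 76309486 to 76384521, minus strand) was at 32.1, 29.8 and 26.8 CPM with dTAG47 and at 27.2, 29.9 and 30.2 CPM with AGB1, a difference of 0.03 (−0.21 to 0.27). Degraders remove the protein, so these levels do not check the depletion. PRPS2 (chromosome X, 12791355 to 12824222, plus strand), the other catalytic subunit, lay between 115 and 117 CPM in all 6 libraries.

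PRPSAP2 (chromosome 17, 18840085 to 18931287, plus strand), the partner of PRPSAP1 among the associated proteins, was the one subunit whose libraries did not overlap. It was at 63.9, 68.0 and 63.7 CPM with dTAG47 and at 72.8, 74.3 and 69.2 CPM with AGB1. The AGB1 libraries were all higher, and the difference of −0.14 (SE 0.07) had an unadjusted p of 0.0486 and an edgeR adjusted p of 0.999. In DMSO, PRPSAP2 was at 65.2, 64.5 and 68.4 CPM, close to the dTAG47 libraries.

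The pathways that make or use PRPP were compared gene by gene. In de novo purine synthesis 1 of 11 genes was higher with dTAG47 and 10 were lower, with a median of −0.03 on the log2 scale. Without dTAG47 1, 3 were higher and 8 lower (median −0.02). The median over all tested genes was 5.54e-05, with 50.04% of genes higher with dTAG47. PPAT, the first committed enzyme of the pathway, was at −0.01 (−0.13 to 0.11), and IMPDH2, which opens the branch to GMP, at −0.03 (−0.12 to 0.07). All 11 purine genes had intervals within 1.5-fold. In pyrimidine synthesis and uridine salvage 7 of 11 genes were higher (median 0.01). CAD, which carries out the first steps of pyrimidine synthesis, was at 0.01 (−0.10 to 0.11), and CTPS2, one of the CTP synthases, was at 45.1, 51.6 and 49.8 CPM with dTAG47 against 44.2, 43.9 and 40.4 with AGB1. The CTPS2 libraries did not overlap, and its difference was 0.19 (0.02 to 0.36, unadjusted p = 0.0335). CTPS1, the other CTP synthase, was at 0.01 (−0.10 to 0.12). UMPS had the lowest value of the list, −0.11, and ranged from −0.15 to −0.08 over 22 alternative settings.

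Base salvage and NAD synthesis had 3 of 10 genes higher (median −0.05). HPRT1, which salvages hypoxanthine and guanine with PRPP, was at 114, 129 and 124 CPM with dTAG47 and 140, 124 and 137 CPM with AGB1, a difference of −0.13 (−0.26 to 0.00) that was −0.08 without dTAG47 1. The dNTP supply genes were lower in 9 of 11 (median −0.03), with RRM1, the large subunit of ribonucleotide reductase, at −0.00 (−0.10 to 0.10) and RRM2, the small subunit, at −0.09 (−0.22 to 0.04). The signs of both groups' medians depended on single libraries: salvage was at 0.0145 without AGB1 1, and dNTP supply was positive without dTAG47 1. In the pentose phosphate pathway, the source of ribose 5-phosphate, 4 of 9 genes were higher (median −0.02). RBKS, ribokinase, had the largest difference of these groups, 0.57 (0.03 to 1.11, unadjusted p = 0.0402), at a low level: 2.87, 4.02 and 3.94 CPM with dTAG47 and 2.33, 1.79 and 3.17 CPM with AGB1. Serine and folate one-carbon genes were higher in 4 of 14 (median −0.04), and no gene in any of these groups passed the threshold.

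The genes that passed against DMSO were then followed between the compounds. With dTAG47, 11 genes (0.06%) passed the adjusted threshold against DMSO, and with AGB1 19 (0.104%). Both comparisons use the same 3 DMSO libraries. A total of 25 genes with a mean of at least 5 CPM passed in either, 5 in both, 6 with dTAG47 only and 14 with AGB1 only. Between the compounds 0 of the 25 passed, and 22 had an interval within 1.5-fold. That band is wider than many of the changes that passed against DMSO. MYC, which passed with AGB1 only, rose by 0.29 on the log2 scale with AGB1, which is under 1.5-fold. An interval within 1.5-fold therefore does not show that a gene responded alike to both compounds. The 25 genes were picked with the same treated libraries that enter the direct difference, so their differences are described and not counted as support.

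The 5 genes that passed with both compounds had overlapping libraries in the treated groups. HMOX1 (chromosome 22, 35380361 to 35394214, plus strand), heme oxygenase, a classical target of the oxidative stress factor NRF2, was at 55.2, 63.7 and 56.1 CPM with dTAG47 and at 60.7, 62.3 and 61.3 CPM with AGB1, where DMSO was at 40.6, 37.8 and 40.1. The treated groups overlapped, and the difference was −0.07 (−0.23 to 0.09). Against the shared DMSO libraries HMOX1 rose by 0.56 on the log2 scale with dTAG47 and by 0.64 with AGB1 (edgeR adjusted p = 0.0013 and 0.00013). CHAC1 (chromosome 15, 40952962 to 40956519, plus strand), a glutathione-degrading enzyme under the stress factor ATF4, was at 12.4, 10.3 and 12.4 CPM with dTAG47 and at 10.3, 12 and 13.2 CPM with AGB1. Its difference was −0.02, with a wide interval of −0.33 to 0.29, and its sign changed in 2 of 22 alternative settings. SLC7A5, the light chain of a transporter for large neutral amino acids, was at 519, 490 and 469 CPM with dTAG47 and 503, 497 and 512 CPM with AGB1, a difference of −0.03 (−0.14 to 0.07). RHOB, a small GTPase, had −0.00 (−0.13 to 0.13), and WNT5A, a secreted WNT ligand that fell with both compounds, had −0.04 (−0.23 to 0.14).

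The start regions of 3 of these genes are shown because they rose with both compounds and CHAC1 carries letters known from ATF4 targets. The sequences are from RefSeq on GRCh38.p14, read 5′ to 3′ on the gene's strand, and capitals mark a match to TGATGNAA, the C/EBP-ATF response element, searched on both strands in the 250 bases before the start. For CHAC1 (chr15:40953251-40953280, plus strand) only the surroundings of the match are given, which begins 209 bases before the RefSeq start. This stretch lies inside the CHAC1 gene model used for the counts, which begins at 40952962, in annotated 5′ untranslated regions of GENCODE transcripts. It is therefore upstream of the RefSeq start only. For SLC7A5 (chr16:87869508-87869757, minus strand) and RHOB (chr2:20446824-20447073, plus strand) the whole 250 bases are given.
CHAC1: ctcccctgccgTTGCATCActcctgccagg
SLC7A5: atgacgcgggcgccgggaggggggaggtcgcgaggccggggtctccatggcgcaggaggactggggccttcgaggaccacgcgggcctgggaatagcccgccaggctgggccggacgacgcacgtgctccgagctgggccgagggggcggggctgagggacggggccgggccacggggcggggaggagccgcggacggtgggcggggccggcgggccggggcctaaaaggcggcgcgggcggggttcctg
RHOB: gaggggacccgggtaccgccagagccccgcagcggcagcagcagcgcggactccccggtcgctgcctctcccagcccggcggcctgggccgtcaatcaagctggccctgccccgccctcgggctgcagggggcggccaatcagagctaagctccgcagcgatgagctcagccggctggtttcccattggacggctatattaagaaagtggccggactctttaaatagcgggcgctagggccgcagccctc
CHAC1 holds the match on the opposite strand, and the windows of SLC7A5 and RHOB hold none. Of 35116 RefSeq promoters, 1104 (3.14%) hold the letters in the same window. Of 30 listed ATF4 targets 25 had an entry, and 5 of their 39 promoters hold them: ASNS, ATF3, CEBPG, CHAC1 and JDP2. The antioxidant response element of NRF2 targets, TGACNNNGC, was searched the same way: 3830 promoters (10.91%) hold it, as do 5 of 12 promoters of the 11 listed NRF2 targets with an entry, from GCLM, ME1, PGD and TXNRD1. HMOX1 and SLC7A11 are missing entries. A match describes the letters only, and windows without one say nothing about the factor.

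**Figure D2:**
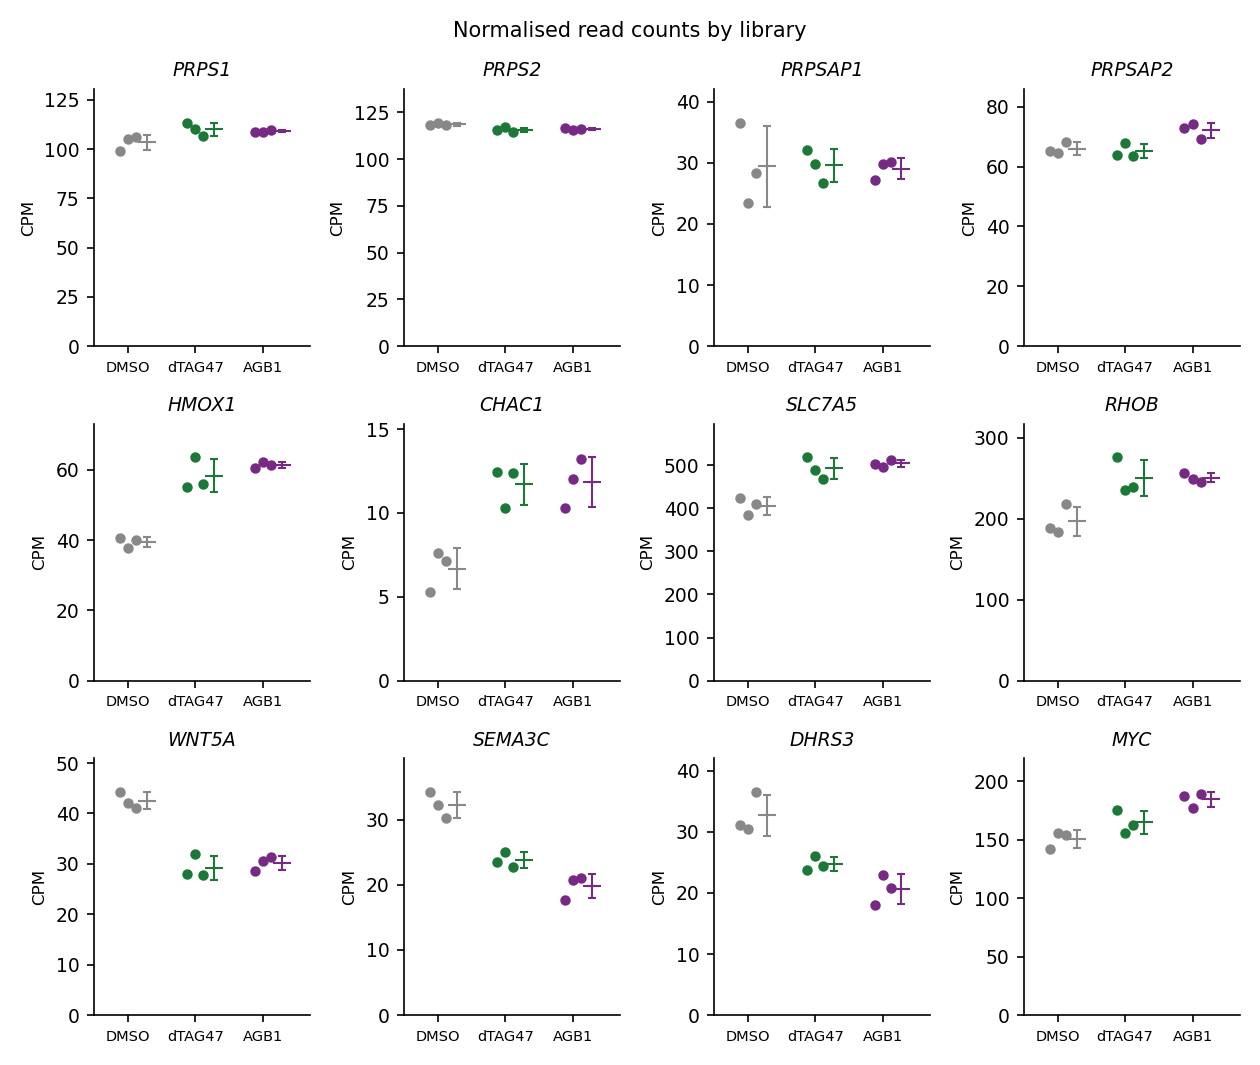
Each panel gives the CPM of 1 gene in the 9 libraries, with points for DMSO, dTAG47 and AGB1 and, beside them, the mean and SD of the 3 libraries on an axis from 0. HMOX1 and CHAC1 overlap between dTAG47 and AGB1, whereas SEMA3C, DHRS3, MYC and PRPSAP2 do not.

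Among the 14 genes that passed with AGB1 only, 6 had an interval of the direct difference that left out 0 and 7 had libraries that did not overlap. Over all tested genes 4.02% had such an interval, and 5.35% and 5.1% had every dTAG47 library above or below. The 14 were picked because they passed with AGB1 and not with dTAG47. In all 14 the change against DMSO was larger with AGB1, so their selection favours an excess over these shares. SEMA3C (chromosome 7, 80742538 to 80922359, minus strand), a secreted guidance cue, was at 23.5, 25.1 and 22.8 CPM with dTAG47 and at 17.6, 20.7 and 21.0 CPM with AGB1, where DMSO was at 34.3, 32.3 and 30.3. The dTAG47 libraries lay between the other groups, and the difference was 0.27 (SE 0.10, 0.06 to 0.48, unadjusted p = 0.0133). DHRS3, which reduces retinaldehyde, had the same order of groups: 23.7, 26.1 and 24.4 CPM with dTAG47 and 18.1, 22.9 and 20.8 CPM with AGB1, a difference of 0.27 (0.05 to 0.49). MYC, the growth-promoting transcription factor, was at 175, 156 and 163 CPM with dTAG47 and at 188, 177 and 189 CPM with AGB1. All AGB1 libraries were higher, the difference was −0.16 (−0.29 to −0.04), and DMSO was at 142, 156 and 154 CPM.

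Of the others of this group, FSTL1, a secreted glycoprotein, was at 0.16 (0.03 to 0.30), and the nuclear receptor gene NR2F1 at 0.17 (0.01 to 0.32). NRP1, the semaphorin co-receptor, was at 30.6, 35.3 and 30.8 CPM with dTAG47 and 28.5, 28.4 and 30.4 CPM with AGB1, a difference of 0.15 whose interval (−0.04 to 0.34) held 0. HOXB3 and HOXB9, homeobox genes, were at 0.18 (−0.05 to 0.41) and 0.06 (−0.06 to 0.19), and HOXB3 overlaps other genes of its cluster in 13.2% of its exonic bases. FTH1, the ferritin heavy chain, was at −0.06 (−0.17 to 0.05), RPLP1 at −0.07 and RPL36 at −0.09, both ribosomal proteins, and the kinetochore motor CENPE at 0.08 (−0.06 to 0.21). FTH1 shares 62.4% of its exonic bases with BEST1 on the opposite strand. HSPA1A, a heat shock chaperone, was at −0.19 (−0.43 to 0.06), and 71.2% of its 75-base words recur in HSPA1B. U2AF1, a splicing factor gene with a near-identical copy, was the one of the 14 with an interval wider than 1.5-fold, and its level rested on single libraries (47.6 CPM in AGB1 2 against 7.93 in AGB1 3).

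**Figure D3:**
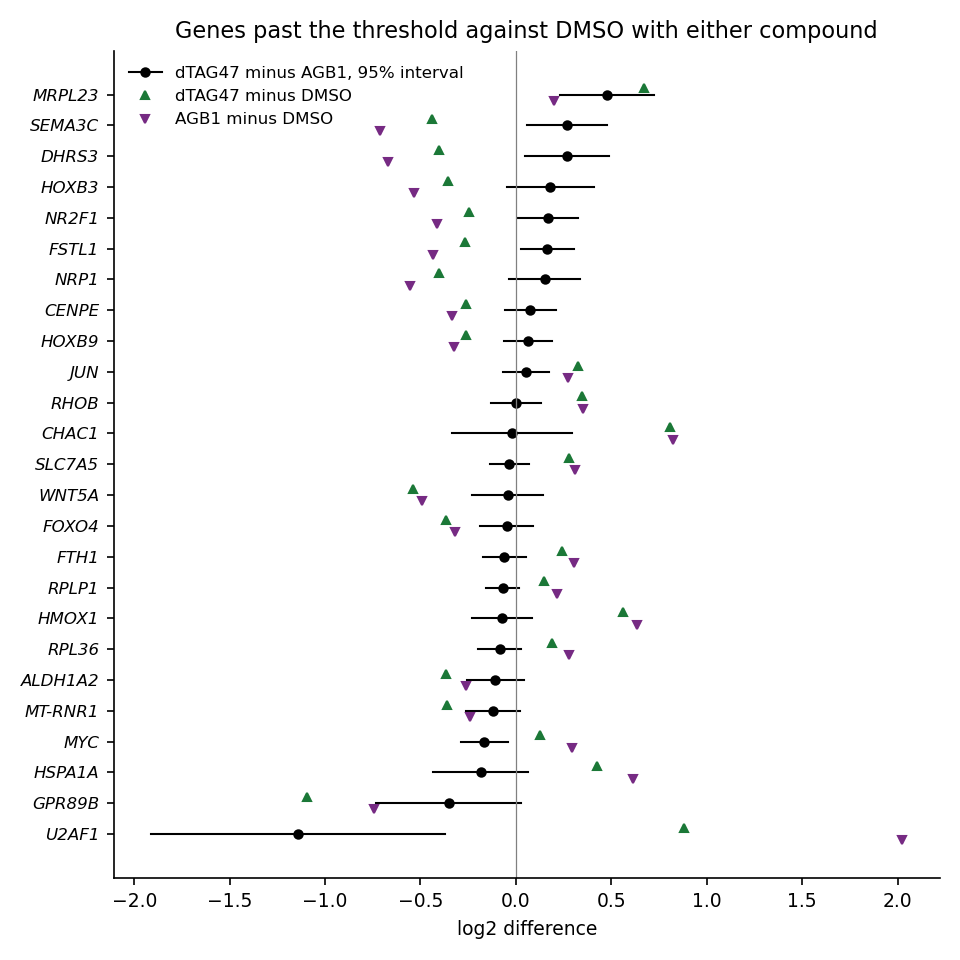
For each of the 25 genes past the threshold against DMSO with either compound, the black point and line give the log2 difference dTAG47 minus AGB1 and its 95% interval, and triangles give the difference of each compound from the shared DMSO libraries. Most black points lie near 0, and U2AF1 and MRPL23 lie farthest out.

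Of the 6 genes that passed with dTAG47 only, 5 had an interval that held 0. JUN, the AP-1 family member, was at 641, 547 and 585 CPM with dTAG47 and 570, 566 and 573 CPM with AGB1, a difference of 0.05 (−0.07 to 0.17). FOXO4, a forkhead factor, was at −0.05 (−0.19 to 0.09), ALDH1A2, which makes retinoic acid, at −0.11 (−0.26 to 0.04), and the mitochondrial ribosomal RNA MT-RNR1 at −0.12 (−0.26 to 0.02). The other mitochondrial ribosomal RNA, MT-RNR2, did not pass against DMSO and went the opposite way, at 0.13 (0.03 to 0.24). Every dTAG47 library of MT-RNR2 stood above every AGB1 library. GPR89B was at −0.35 (−0.73 to 0.03) and at −0.17 without dTAG47 1, and summed with its copy GPR89A at −0.07 (SE 0.15). MRPL23, a protein of the mitochondrial ribosome, was at 68.9, 44.8 and 46.2 CPM with dTAG47 and at 42.5, 35.4 and 36.9 CPM with AGB1. Its groups did not overlap and the difference was 0.48 (SE 0.12, unadjusted p = 0.00048), but dTAG47 1 carried much of it: the difference was 0.25 without that library.

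The genes with the smallest unadjusted p were then described, 8 in each direction among protein-coding genes of at least 5 CPM with no overlap. They were chosen for this difference, so their values are a description. DLL1 (chromosome 6, 170282206 to 170306565, minus strand), a Notch ligand, was at 7.11, 6.83 and 6.38 CPM with dTAG47 and at 4.44, 3.94 and 4.43 CPM with AGB1. DMSO was at 6.39, 5.33 and 6.93 CPM, so the AGB1 libraries were the low ones, and the difference was 0.66 (SE 0.18, 0.30 to 1.03, unadjusted p = 0.000864). KRTAP19-1 (chromosome 21, 30479699 to 30480344, minus strand), a keratin-associated protein gene, was at 8.98, 8.71 and 9.88 CPM with dTAG47 and 4.34, 6.19 and 6.73 CPM with AGB1, a difference of 0.68 (0.34 to 1.02). VANGL2 (chromosome 1, 160400586 to 160428678, plus strand), a membrane protein of planar cell polarity, was at 56.6, 56.0 and 53 CPM with dTAG47 and 45, 48.0 and 43.8 CPM with AGB1, where DMSO was at 51.7, 58.5 and 59.7. For VANGL2 the difference was 0.28 (0.11 to 0.44). CC2D1B (0.27), KLHL2 (0.37), IL17RC, an interleukin 17 receptor subunit (0.51), MGARP, a mitochondrial protein (0.53), and MRPL23 complete the genes higher with dTAG47. MGARP shares 22.6% of its words with NDUFC1.

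Lower with dTAG47 was ZNF738 (chromosome 19, 21358930 to 21379302, plus strand), a zinc finger gene, at 8.96, 9.43 and 8.63 CPM against 11.2, 14.7 and 14.9 CPM with AGB1. Its difference was −0.59 (SE 0.14, −0.89 to −0.30, unadjusted p = 0.000263), and DMSO was at 8.66, 10.1 and 9.67 CPM, at the level of the dTAG47 libraries. SERPINB9, an inhibitor of granzyme B, was at 6.99, 6.68 and 7.79 CPM against 9.97, 9.27 and 12.3 CPM, a difference of −0.56 (−0.88 to −0.23). MRPS6, a protein of the mitochondrial ribosome, was at 20.9, 20.1 and 19.0 CPM against 26.0, 25 and 24.5 CPM, a difference of −0.33 (−0.54 to −0.12). RPS29, of the cytosolic ribosome, was at 144, 162 and 164 CPM against 171, 200 and 185 CPM, and GLA, the lysosomal alpha-galactosidase, at 419, 412 and 441 CPM against 480, 479 and 474 CPM. Their differences were −0.24 and −0.17. PTMA (−0.15), ZFAT (−0.45) and RGPD8 (−0.63) complete the genes lower with dTAG47, and 92.8% of the words of RGPD8 recur in other genes. None of the 16 passed the threshold, and their lack of overlap fixes their direction when a library is left out.

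**Figure D4:**
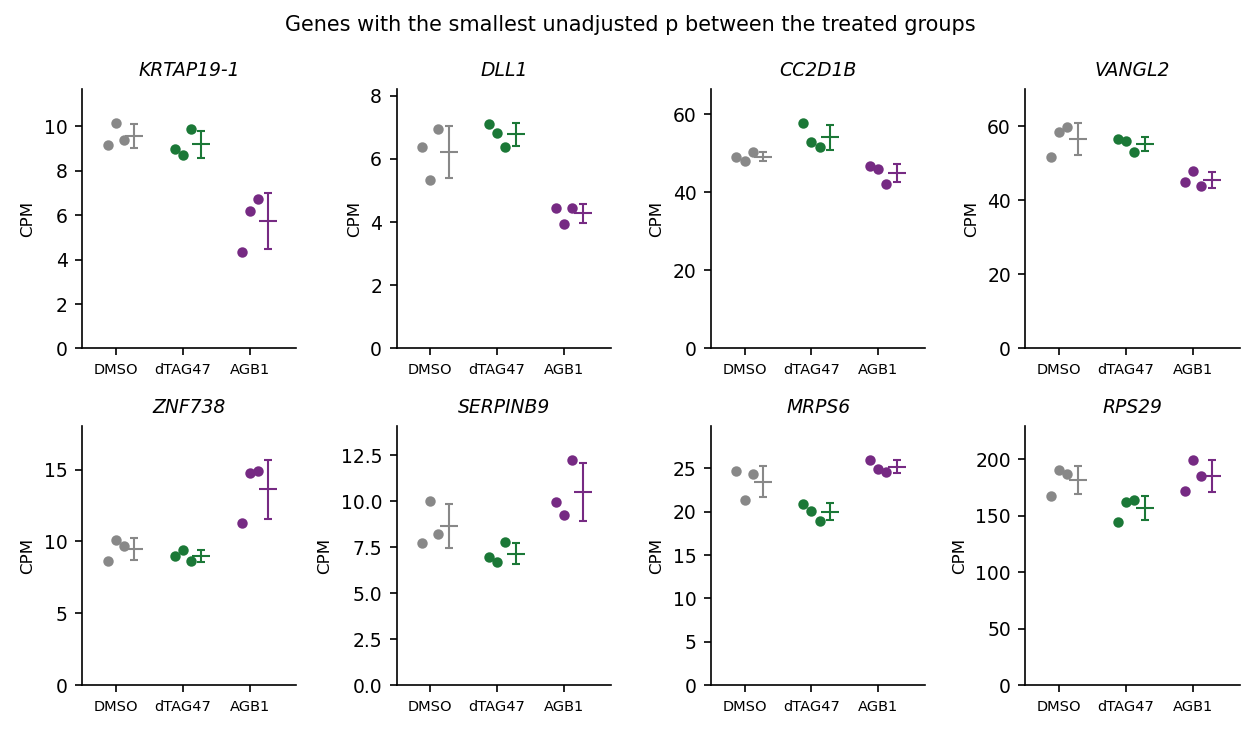
Each panel gives the CPM of 1 gene in the 9 libraries, with the mean and SD of each group beside the points and an axis from 0. The top row holds genes with the dTAG47 libraries above the AGB1 libraries and the bottom row genes with the reverse order, as they were chosen.

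Groups of genes fixed as lists were compared by their counts and medians, and 0 genes of any of the 32 lists passed the threshold. NRF2 targets, which defend against oxidative stress, were lower with dTAG47 in 16 of 18 genes, with a median of −0.07 on the log2 scale. The thioredoxin gene TXN was at 413, 453 and 464 CPM with dTAG47 and 467, 503 and 477 CPM with AGB1, a difference of −0.12 (−0.23 to −0.01). PRDX1, a peroxiredoxin, was at 352, 383 and 377 CPM against 404, 399 and 402 CPM, a difference of −0.11 (−0.22 to −0.01). The cystine transporter SLC7A11 was at 38.9, 51.0 and 41.8 CPM against 49.6, 51.4 and 54.4 CPM, a difference of −0.24 (−0.46 to −0.01) in overlapping groups. NQO1, the quinone reductase, was at −0.16 (−0.44 to 0.13), TXNRD1, thioredoxin reductase, at −0.10 (−0.20 to 0.01), GCLM, a subunit of the glutathione-making ligase, at −0.06 (−0.22 to 0.09), and FTL, the ferritin light chain, at −0.06 (−0.15 to 0.04). The list's median was −0.09 with the GC trend removed and −0.05 without dTAG47 1. Without that library TXN was at −0.07, SLC7A11 at −0.15 and TXNRD1 at −0.06, while NQO1 was at −0.26. The median against the shared DMSO libraries was 0.05 with dTAG47 and 0.11 with AGB1.

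ATF4 targets, the amino acid and stress genes of the integrated stress response, were higher with dTAG47 in 11 of 30 genes (median −0.02), with medians of 0.12 and 0.13 against DMSO. ATF4 itself was at −0.04 (−0.13 to 0.04), SESN2, a stress-induced inhibitor of mTORC1, at 0.05 (−0.08 to 0.17), TRIB3, a pseudokinase, at 0.03 (−0.15 to 0.21) and DDIT3, the factor CHOP, at 0.04 (−0.33 to 0.41). PPP1R15A, the phosphatase subunit that ends the response, was the member with the smallest p: 36.3, 39.6 and 30.5 CPM with dTAG47 against 30.2, 29.1 and 29.4 CPM with AGB1. Its difference was 0.27 (0.07 to 0.46, unadjusted p = 0.0101), and the dTAG47 libraries were spread more widely than the AGB1 libraries.

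p53 targets were higher with dTAG47 in 20 of 26 genes (median 0.05), in a line where large T antigen binds p53. Against the shared DMSO libraries the list's median was −0.01 with dTAG47 and −0.09 with AGB1. By these medians the dTAG47 libraries were near the DMSO level and the AGB1 libraries lower. BAX, a pro-apoptotic pore protein, was at 79.2, 73.5 and 70.5 CPM with dTAG47 and 62.5, 61.5 and 68.5 CPM with AGB1, a difference of 0.21 (0.06 to 0.37). GADD45A, a growth arrest gene, was at 45.8, 39.5 and 41.8 CPM against 37.0, 37.7 and 36.3 CPM, and the nuclease AEN at 127, 123 and 132 CPM against 111, 121 and 115 CPM. Neither pair of groups overlapped, with differences of 0.20 and 0.14. CDKN1A, the cell cycle inhibitor p21, was at 0.06 (−0.12 to 0.24) and MDM2, the ligase for p53, at 0.04 (−0.11 to 0.19). TP53I3, a quinone oxidoreductase, went the other way, at 16.4, 12.8 and 14.1 CPM against 15.4, 17.5 and 17.8 CPM, a difference of −0.23 (−0.49 to 0.02).

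Class 3 semaphorins, their receptors and non-canonical WNT genes had the highest median of the lists, 0.12, with 18 of 25 genes higher with dTAG47 and 6 (against 5.35% of all tested genes) with every dTAG47 library above. This list was drawn up knowing that SEMA3C, NRP1, FSTL1 and WNT5A pass against DMSO, so its direction is not independent of them. The members without overlap were VANGL2, SEMA3C, FSTL1, NRP1, SEMA3D (0.25, −0.21 to 0.71) and FZD5, a frizzled receptor. FZD5 was at 26.1, 28.4 and 28 CPM with dTAG47 and 26.0, 23.0 and 21.4 CPM with AGB1, a difference of 0.23 (0.01 to 0.44). WNT5A, the receptor genes PLXNA1 (0.02), PLXNA3 (−0.03) and ROR1 (−0.02), and VANGL1 (−0.00) were near 0. Genes of retinoic acid synthesis, breakdown and receptors were higher in 11 of 17 (median 0.09), a median that was 0.00640 without dTAG47 2. They include DHRS3 and NR2F1, which passed against DMSO with AGB1 only, and ALDH1A2, which passed with dTAG47 only. The direction of the retinoic acid list is therefore not independent of those genes either. HOX genes were higher in 19 of 37 (median 0.01, and −0.07 without dTAG47 1), although their medians against DMSO were −0.28 with dTAG47 and −0.31 with AGB1.

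Lysosomal genes under TFEB were higher with dTAG47 in 19 of 24 (median 0.06, and 0.04 without dTAG47 1). CTSA, the protective cathepsin, was at 61.2, 59.0 and 61.6 CPM with dTAG47 and 52.3, 54.9 and 51.9 CPM with AGB1, a difference of 0.19 (0.04 to 0.34), while GLA went the other way. CTSA shares 28.5% of its exonic bases with genes on the opposite strand. NEU1, the sialidase that binds CTSA, was at 0.08 (−0.07 to 0.24). Cholesterol synthesis genes were higher in 12 of 20 (median 0.03).

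Genes of the translation and respiratory machinery were mostly lower with dTAG47, by little. Cytosolic ribosomal protein genes were lower in 70 of 86 (median −0.04), and in 21 of them every dTAG47 library stood below every AGB1 library, beside 5.1% of all tested genes. Nuclear-encoded respiratory chain genes were lower in 63 of 82 (median −0.05), 12 of them with all dTAG47 libraries below. The DMSO libraries, treated alike, differed by more than these medians. Their scores for the ribosomal list, as levels relative to the other libraries, were −0.070, 0.038 and 0.077. For the respiratory chain list they were −0.085, 0.011 and 0.051. In both lists every dTAG47 score lay below every AGB1 score, and all lay within the DMSO range. Whether the genes of a list move together was not tested, so these gene counts are not independent support gene by gene. ATP5F1E, a subunit of the ATP synthase, was at −0.20 (−0.36 to −0.04) in overlapping groups, and at −0.11 without dTAG47 1. Nucleolar genes of ribosome biogenesis were lower in 22 of 28 (median −0.04), among them NPM1, nucleophosmin, at 2406, 2614 and 2489 CPM against 2680, 2743 and 2654 CPM, a difference of −0.10 (−0.18 to −0.03). Cytosolic aminoacyl-tRNA synthetases were lower in 16 of 20 (median −0.03), and glycolysis genes in 12 of 17 (median −0.03), with GAPDH at −0.10 (−0.18 to −0.02) and at −0.12 with the GC trend removed.

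Replication-dependent histone genes, whose mRNAs lack a poly(A) tail and are poorly caught by poly-T selection, were lower with dTAG47 in 28 of 39 tested (median −0.13), the lowest median of the lists. Their range was wide, from −1.40 to 1.02, and only 13 of the 39 had an interval within 1.5-fold. HIST1H1C, a linker histone gene, was at 37.5, 34.5 and 35.4 CPM with dTAG47 and 42.8, 38.6 and 44.3 CPM with AGB1, a difference of −0.23 (−0.42 to −0.04). Histone chaperones were lower in 14 of 22 (median −0.03), with CHAF1A, the large subunit of chromatin assembly factor 1, at 0.03 (−0.09 to 0.16), ASF1A, which hands H3 and H4 on to other chaperones, at 0.04 (−0.21 to 0.29), and its paralog ASF1B at −0.11 (−0.23 to 0.01). Heat shock chaperones were higher in 8 of 19 (median −0.01), genes of the unfolded protein response in 10 of 17 (median 0.01), immediate early genes in 13 of 24 (median 0.02) and genes of the mitochondrial genome in 12 of 16 (median 0.03). The sign of these last medians rested on single libraries: immediate early genes were at −0.0056 without dTAG47 1, and mitochondrial genes at −0.04 without dTAG47 3 and −0.02 without AGB1 3. DNA replication genes were higher in 15 of 35 (median −0.01) and mitotic genes in 12 of 40 (median −0.02), and all 35 replication genes had intervals within 1.5-fold.

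Genes tied to the compounds' own machinery were examined because the compounds recruit different ligases and bind tags derived from different proteins. CRBN, the receptor used by dTAG47, was at 9.61, 9.56 and 11.2 CPM with dTAG47 and 10.7, 11.5 and 12.8 CPM with AGB1, a difference of −0.21 (−0.49 to 0.08). VHL, the receptor used by AGB1, was at 177, 178 and 172 CPM against 177, 179 and 179 CPM, a difference of −0.02 (−0.13 to 0.09). The 5 tested subunits of the CRBN ligase had a median of −0.01, all 5 lower with dTAG47. Without dTAG47 1, 2 of them were higher and 3 lower. The 5 subunits of the VHL ligase had a median of −0.02, with 3 lower, and RBX1 is counted in both lists. ELOB, a VHL ligase subunit, was at 112, 116 and 113 CPM with dTAG47 and 127, 124 and 126 CPM with AGB1. Its libraries did not overlap, and the difference was −0.14 (−0.28 to −0.00, unadjusted p = 0.0465 in edgeR). CUL2, of the same ligase, went the other way at 0.13 (−0.03 to 0.29). VHL normally marks the hypoxia-inducible factors for degradation, and their targets were higher with dTAG47 in 14 of 29 (median −0.00). VEGFA, the vascular growth factor, was at −0.00 (−0.17 to 0.16), EGLN3, a prolyl hydroxylase of the pathway, at −0.01 (−0.27 to 0.26) and NDRG1 at −0.12 (−0.26 to 0.03). KDM3A, a histone demethylase induced by hypoxia, was at 65.2, 68.7 and 72.0 CPM with dTAG47 and 59.2, 59.6 and 63.3 CPM with AGB1, a difference of 0.18 (0.03 to 0.32).

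BET proteins, HEXIM1 and FKBP12, the parents of the tags and a gene known to respond to BET inhibition, were lower with dTAG47 in 5 of 7 (median −0.10). BRD2 was at 678, 674 and 693 CPM with dTAG47 and 739, 709 and 741 CPM with AGB1, a difference of −0.10 (−0.19 to −0.01) without overlap. HEXIM1, an inhibitor of the elongation factor P-TEFb, was at 115, 102 and 110 CPM against 121, 118 and 118 CPM, a difference of −0.13 (−0.26 to 0.01). FKBP1A, which encodes FKBP12, was at 281, 289 and 286 CPM against 317, 297 and 305 CPM, a difference of −0.10 (−0.21 to −0.00). FKBP1A shares 26.0% of its words with other genes.

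**Figure D5:**
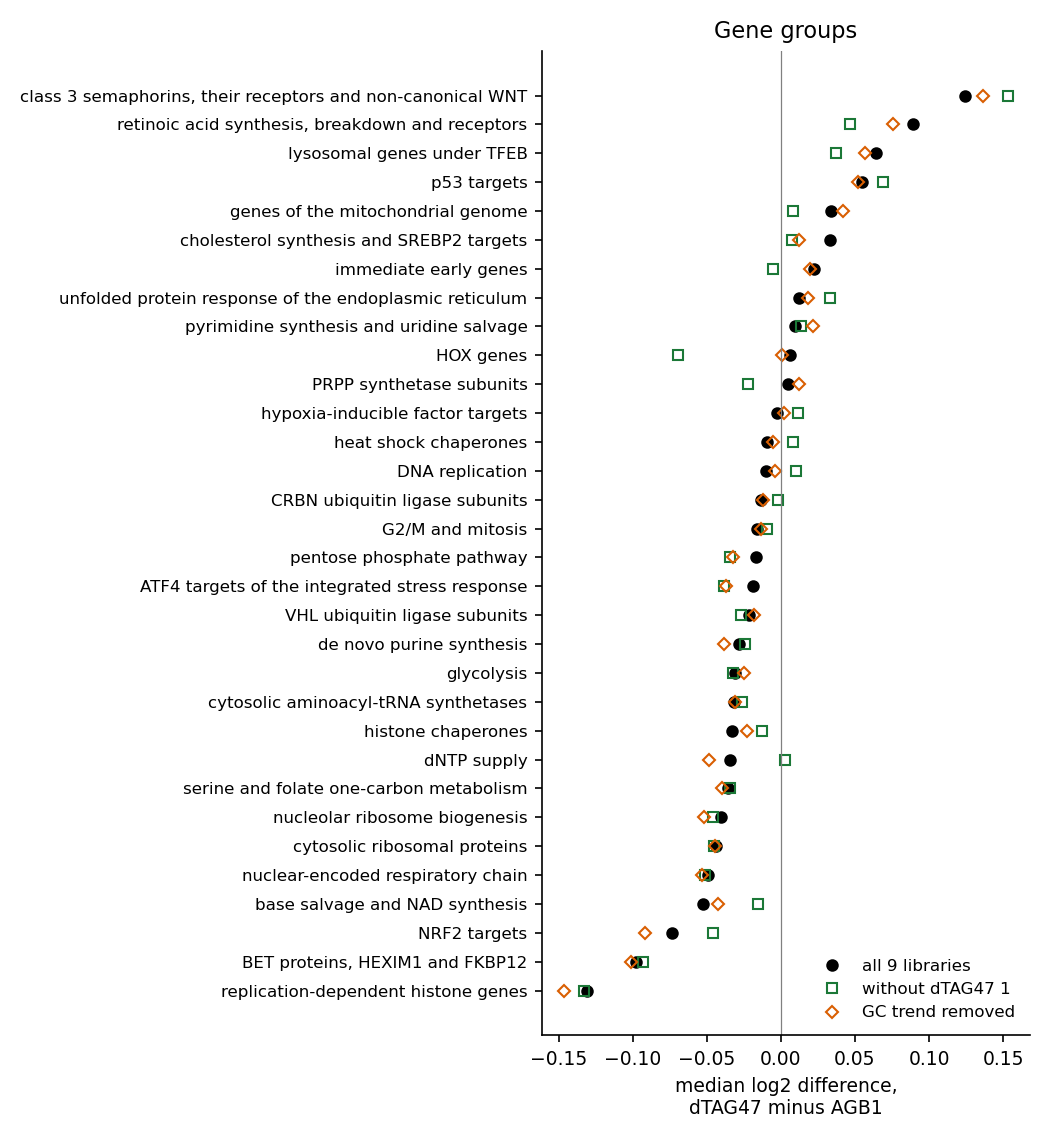
Each row is a gene list, with the median log2 difference, dTAG47 minus AGB1, over its tested members from all 9 libraries (filled circles), without dTAG47 1 (open squares) and with the GC trend removed (diamonds). The medians run from −0.13 for replication-dependent histone genes to 0.12 for the semaphorin and WNT list, and some lists near 0 change side without dTAG47 1.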

How the data were processed

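Poly(A)-selected RNA was sequenced from 9 libraries. Each deposited file gives raw read counts of 1 library by Ensembl gene. The submitters' processing notes name HISAT2, DESeq2 and hg38, and how reads were counted, including strand, is not given in the sources used here. Gene models match GENCODE 29 for 58735 of 58735 genes, and 25698 genes had no count. Names and gene lengths come from the deposited files.

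Genes were filtered with filterByExpr (18319 kept, 14043 protein-coding), scaled by TMM and fitted with edgeR 4.0.16 in R 4.3.3 to all 9 libraries, which share 1 estimate of the spread (common biological coefficient of variation 11.0%). The contrast dTAG47 minus AGB1 was tested with glmQLFTest and adjusted by Benjamini-Hochberg over all tested genes, with a threshold of 0.05. CPM levels use the TMM-scaled totals. Standard errors are the log2 difference divided by the square root of F. Shares of counts were compared by exact permutation. Copies were measured as 75-base words of the longest transcript found in other genes. Reads carry no molecular identifiers, so counting floors cover counting error only. The fit was tested on simulated data.

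The libraries compared, the gene lists and the rule for named genes were chosen with earlier results of these data known. The rule names the 4 PRPP synthetase subunits, genes past the threshold between the compounds, in each direction the 8 protein-coding genes of smallest p whose libraries do not overlap and whose mean reaches 5 CPM, genes past the threshold against DMSO at that level, and in each list the member with the smallest p in each direction. Not every gene named by the rule is described. Other genes given by value were chosen after their values were seen. Alternatives were DESeq2 1.42.0, limma-voom (limma 3.58.1), other scalings and filters, the 6 treated libraries alone, protein-coding genes, a replicate block, removal of GC (lowess span 0.3) or length trends, and each library left out. Summing the counts of copies was added after seeing the data.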

Additional observations from a re-analysis of the deposited data

How the results depend on the processing

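Calls between the compounds stayed at 0 in 19 of 22 alternatives. There were 13 without a filter on low counts, and 0 to 2 when each library was left out: 1 without dTAG47 1 (AL591846.1) and 2 without AGB1 1 (MAGED4B and EIF3C). Of the 13, 10 share at least 49.3% of their 75-base words with other genes. The other 3 were AL591846.1, MRPL23 (edgeR adjusted p = 0.00018) and ZNF595 (edgeR adjusted p = 0.032), none of which passed with the filter in the 9 libraries. The replicate numbers did not pair the libraries (correlations of deviations −0.029, −0.028 and −0.056, and 0 of 6 libraries correlated best with their own number), and the fit with the replicate block gave 0 calls. Of 32 lists, 20 kept the sign of their median throughout. Medians on the log2 scale moved by more than the spread between libraries as follows. With the GC trend removed, NRF2 targets were at −0.0916 (−0.0828 with the replicate block as well) and cholesterol genes at 0.0119 (0.0126 with it). Cholesterol genes were at 0.0418 on library sizes alone and 0.0240 with the length trend removed, and retinoic acid genes at 0.0359 without a filter. With single libraries left out, the medians ranged from 0.00443 to 0.0398 for pyrimidine genes, −0.0897 to 0.0145 for salvage, −0.0504 to −0.00542 for one-carbon genes, −0.0366 to −0.00683 for glycolysis and −0.113 to −0.0462 for NRF2 targets. They ranged from −0.0611 to −0.00225 for the CRBN ligase, −0.0469 to −0.0131 for histone chaperones, −0.0216 to 0.0101 for DNA replication, −0.0257 to 0.0334 for the unfolded protein response and 0.0369 to 0.0657 for lysosomal genes. They ranged from 0.00777 to 0.0330 for cholesterol genes, −0.0694 to 0.0250 for HOX genes and 0.00640 to 0.106 for retinoic acid genes. The cause of these movements was not tested. With 3 libraries per group, 398 genes of at least 5 CPM had intervals reaching past 1.5-fold.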

Other observations

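Some differences rested on genes that have a near-identical copy. The splicing factor gene U2AF1 (chromosome 21, 43092956 to 43107587, minus strand) was at 22.7, 6.25 and 6.83 CPM with dTAG47 and at 23.4, 47.6 and 7.93 CPM with AGB1, a difference of −1.14 (−1.91 to −0.37), and 98.4% of its words recur in U2AF1L5. U2AF1L5 was at 7.11, 19.2 and 8.08 CPM with dTAG47 and at 7.81, 6.91 and 64.2 CPM with AGB1. Within each treated group the library highest in one copy was not the highest in the other, while DMSO 2 was the highest DMSO library in both. Summed, the copies were at 29.8, 25.4 and 14.9 CPM with dTAG47, at 31.2, 54.5 and 72.2 CPM with AGB1, and at 13.1, 20.2 and 15.7 CPM in DMSO. The AGB1 libraries were the high ones, with AGB1 1 just above dTAG47 1. In a fit with the counts of 13 pairs of copies summed, chosen after seeing the data, the U2AF1 sum was the 1 call among 18307 genes (−1.16, SE 0.20, edgeR adjusted p = 0.0481). The adjusted p was 0.00681 in the 6 treated libraries alone. The call ended with the replicate block (adjusted p = 0.143), in DESeq2 (adjusted p = 0.943) and without dTAG47 2 (adjusted p = 0.0895), dTAG47 3 (adjusted p = 0.701), AGB1 2 (adjusted p = 0.552) or AGB1 3 (adjusted p = 0.853). With the other libraries left out the adjusted p lay between 0.000117 and 0.0407.

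The translation initiation factor genes EIF3C and EIF3CL differed in opposite directions. EIF3C was at 56.6, 53.2 and 51.9 CPM with dTAG47 and 53.9, 70.6 and 89.4 CPM with AGB1, a difference of −0.40, while EIF3CL was at 0.45. Their sum was at −0.02 (−0.25 to 0.22). RGPD8 was at −0.63 and its sum with RGPD5 at −0.12. ZNF595, a zinc finger gene below 5 CPM, had the smallest p of all tested genes: 1.28, 1.36 and 0.994 CPM with dTAG47 and 2.60, 3.97 and 2.88 CPM with AGB1, a difference of −1.36 (−2.03 to −0.70), where DMSO was at 4.09, 1.68 and 5.14 CPM.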
